A study of Saccharomyces cerevisiae with 6 samples.

Results

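Ribosome biogenesis and rRNA processing factors were followed in cells of the budding yeast Saccharomyces cerevisiae treated with chloroacetaldehyde, a reactive chlorinated aldehyde that can modify DNA and RNA bases and protein thiols. The factors were chosen by name alone: every gene whose platform symbol is NOP, UTP, RRP, NOC, RPF, NOG, BMS, ESF or ENP followed by a number. This gave 64 genes of 5365 named on the array, and 46 of the 64 had a value on all 3 hybridizations. The same 64 genes were found with the current symbols of the R64 gene table.

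Cells of strain S288C grew in rich medium with 2% glucose at 25 °C to an optical density of 1 and received the compound at 25 ppm for 2 h. On each two-colour cDNA array, polyadenylated RNA of these cells (Cy5) was set against RNA collected before the compound was added (Cy3). There were 3 hybridizations, of independent biological samples per the labels, and each was scanned with high and with low laser power. The dyes were never exchanged between the samples, and exposed cells came from the older culture, so neither dye nor time of growth can be told apart from the exposure.

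Each value is a log2 ratio, exposed over before, so 1 is a 2-fold higher ratio. Base 2 and this direction are likely, since the labels name the exposed RNA as channel 1, but no source used here states them, and in the opposite direction all signs would be turned. A ratio carries no level of a transcript. The LOWESS normalization would hide a shift shared by most genes.

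Eukaryotic ribosomes are built in the nucleolus. A long precursor rRNA is bound by a large assembly, the small subunit processome, then modified, cut and trimmed while ribosomal proteins join, and separate factors bring the small (40S) and the large (60S) subunit to export. In yeast the genes of these factors are known to be expressed together, high in fast growth on glucose and low under many stresses.

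The 3 hybridizations disagreed in the direction of these genes. Over the 46 factors with all values the median log2 ratio was 0.28 on hybridization 1, 0.36 on hybridization 2 and -0.51 on hybridization 3. The median over all 3642 genes with all values was -0.09, -0.01 and -0.02 in the same order. The factors thus lay above the typical gene on hybridizations 1 and 2 and below it on hybridization 3. Over all genes too the arrays agreed little, and hybridization 3 least. Its ratios correlated at -0.05 with those of hybridization 1 and at 0.07 with those of hybridization 2. Between hybridizations 1 and 2 the correlation was 0.21. These are correlations across genes that are not independent of each other. Results are therefore given per hybridization, and with and without hybridization 3.

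**Figure D1:**
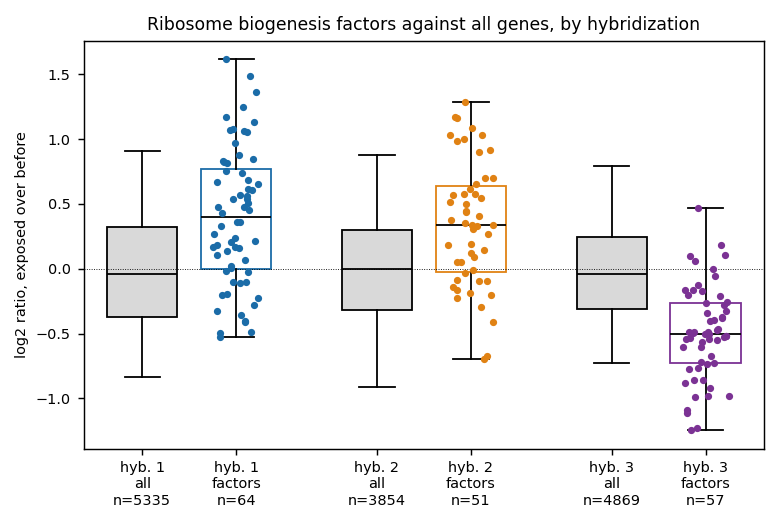
Log2 ratios of exposed over before on each hybridization for all named genes (grey boxes, whiskers from the 5th to the 95th percentile) and for the ribosome biogenesis factors (coloured boxes with a point per gene, whiskers over the whole range; boxes span the quartiles with the median). The factors' medians are 0.40 and 0.34 on hybridizations 1 and 2 and -0.50 on hybridization 3, where the middle of all genes stays near 0.

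Every factor with a value on a given hybridization was then counted, also those without all 3 values. On hybridization 1, 48 of 64 factors were above 0, or 75%, where 46.8% of all genes were. On hybridization 2, 37 of 51 were above 0, or 72.5%, against 49.6% of all genes. On hybridization 3, 52 of 57 were below 0, or 91.2%, against 53.4% of all genes. The median factor lay at percentile 78.9 of all genes on hybridization 1, at percentile 77.4 on hybridization 2 and at percentile 12.8 on hybridization 3.

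Large ratios gave the same picture. A log2 ratio of at least 0.5, or 1.41-fold, a limit chosen after the values were seen, was reached by 28 of 64 factors on hybridization 1 (background 16.4%), by 19 of 51 on hybridization 2 (background 14.9%) and by 0 of 57 on hybridization 3 (background 11.8%). A log2 ratio at or below -0.5 was found for 1 factor on hybridization 1 (background 17.2%), 2 on hybridization 2 (background 15.5%) and 29 on hybridization 3 (background 12.9%).

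In most single factors too hybridization 3 was the lowest array. It gave the lowest of the 3 values for 40 of the 46 factors, or 87% (31.5% of all genes), and the highest value for 0 of them (35.3% of all genes). The mean of hybridizations 1 and 2 exceeded hybridization 3 for 45 of 46 factors, by a median of 0.81, while it did so for 47.9% of all genes with a median difference of -0.02. The exception was RRP4, which encodes a cap protein of the RNA exosome, with a difference of -0.11. Above 0 on hybridizations 1 and 2 and below 0 on hybridization 3 were 20 of 46 factors, or 43.5%, against 12.5% of all genes.

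**Figure D2:**
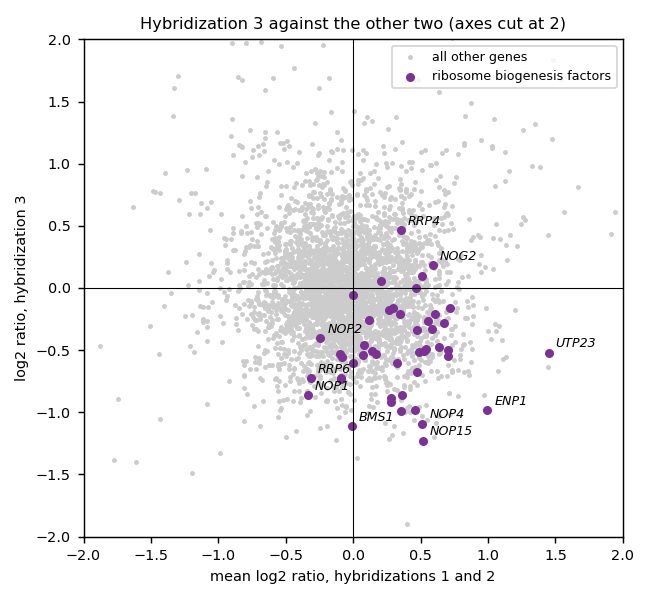
Log2 ratio on hybridization 3 (vertical axis) against the mean log2 ratio of hybridizations 1 and 2 (horizontal axis) for 46 ribosome biogenesis factors (purple) and all other genes measured on all 3 hybridizations (grey, axes end at 2 and leave out a few genes). The factors fill the lower right of the grey cloud, with UTP23, ENP1, NOP4 and NOP15 farthest from its centre.

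No factor passed the test of exposed against unexposed cells over the 3 hybridizations. Of the 46 factors 0 passed an adjusted p of 0.05 in either direction (limma with Benjamini-Hochberg adjustment over 3642 genes; 0.0275% of all genes were called higher and 0.0275% lower). At an unadjusted p of 0.05 the count was also 0 higher (background 2.77%) and 0 lower (background 3.38%). The adjusted p of the factors ran from 0.822 to 0.998. Their means were above 0 for 24 and below 0 for 22, with a median of 0.05 against -0.04 over all genes. The SD over hybridizations had a median of 0.56 (range 0.18 to 1.16), against 0.38 over all genes. The 95% confidence interval reached a median of 0.61 to either side of the mean and held 0 for all 46. An observed mean passes an unadjusted p of 0.05 only beyond its own half-width, which ran from 0.51 to 0.88 over the factors. True differences of about that size could thus be missed with 3 arrays. The adjusted threshold asks for more: the stress gene YGP1, with a mean of 1.6, had an adjusted p of 0.137 (limma).

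Only 4 of the 46 factors kept 1 sign on all 3 hybridizations, or 8.7%, where 27.5% of all genes did. 2 were higher throughout (background 11.5%), and 2 were lower throughout (background 16.1%). NOG2 (YNR053C), a GTPase of 60S assembly, had 0.48, 0.70 and 0.18 on hybridizations 1, 2 and 3. RRP4 (YHR069C) had 0.13, 0.57 and 0.47. Both were positive on every array, with means of 0.45 ± 0.26 and 0.39 ± 0.23 (SD, n = 3; limma adjusted p = 0.828 and 0.855).

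Lower on every array were a nuclease and a methyltransferase. RRP6 (YOR001W), the nuclear exonuclease of the exosome, had -0.49, -0.14 and -0.72, with a mean of -0.45 ± 0.29 (limma adjusted p = 0.841), or -0.23 once the medians of neighbouring spots were taken out. NOP2 (YNL061W), which methylates a cytosine of the large subunit rRNA, had -0.40, -0.09 and -0.41. Its mean was -0.30 ± 0.18, with the smallest SD of the 46 factors and an adjusted p of 0.889 by limma.

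The processome first meets the precursor through the UtpA and UtpB subcomplexes. UtpA proteins (UTP4, UTP5, UTP8, UTP9, UTP10 and UTP15) were above 0 on hybridization 2 for 5 of 5 with a value, and below 0 on hybridization 3 for 5 of 5. On hybridization 1 they were split, 2 above and 4 below 0, with a median of -0.18. UTP15 (YMR093W) had -0.53, 1.08 and -0.88, a range wider than that of most factors, with a mean of -0.11 ± 1.05 (limma adjusted p = 0.977). UTP5 had 0.43, 1.001 and -0.16, and UTP8 -0.03, 0.62 and -0.16. In each of these genes hybridization 2 was the highest.

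UtpB proteins had few values. UTP18 (YJL069C) had -0.41, 0.98 and -0.92, with a mean of -0.12 ± 0.99 (limma adjusted p = 0.972), and UTP21 had -0.02, 1.03 and 0.10. Both were about 2-fold higher on hybridization 2, and UTP18 was lower on the other arrays. UTP6 had 0.33 on hybridization 1 and -0.57 on hybridization 3, and UTP13 a value of 0.01 on hybridization 1 alone. The UtpC proteins UTP22 and RRP7 differed in sign on hybridizations 1 and 2 and were both negative on hybridization 3, at -0.46 and -0.53.

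The other small subunit factors showed the highest ratios of the whole set. On hybridization 1, 19 of 21 were above 0, with a median of 0.68, and on hybridization 3, 17 of 18 were below 0, with a median of -0.53. UTP23 (YOR004W), a processome protein that binds the snoRNA snR30, had 1.62, 1.28 and -0.52. It was over 2-fold higher on hybridizations 1 and 2 and 1.44-fold lower on hybridization 3, with a mean of 0.79 ± 1.15 (limma adjusted p = 0.822). The mean was 0.38 without hybridization 1 and 1.45 without hybridization 3. ENP1 (YBR247C), needed to mature and export 40S precursors, had 0.83, 1.16 and -0.99, with the widest spread of the 46 factors (mean 0.33 ± 1.16, limma adjusted p = 0.929).

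BMS1, a GTPase of the processome, had 0.18, -0.20 and -1.11, so its ratio was large on hybridization 3 alone. Its value on hybridization 1 combines scans of opposite sign, -0.18 at high and 0.54 at low power. NOP14 (1.05, 0.36 and -0.54) and UTP11 (0.85, 0.50 and -0.28) were highest on hybridization 1 and lowest on hybridization 3. Members of this group went apart on hybridization 2, where 10 were above and 5 below 0: ESF2 had 1.17 there and NOP6 -0.67.

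Core proteins of the small nucleolar RNPs, which guide rRNA modification, had a median of -0.09 on hybridization 1, below the 0.28 of all factors. NOP1 (YDL014W), the fibrillarin methyltransferase of box C/D particles, had 0.02, -0.70 and -0.86, with the lowest mean of all factors at -0.51 ± 0.47 (limma adjusted p = 0.822), or -0.78 without hybridization 1 and -0.34 without hybridization 3. Its partner NOP56 had -0.23, 0.05 and -0.72, a mean of -0.30 ± 0.39 (limma adjusted p = 0.896), or -0.09 without hybridization 3 and -0.47 without hybridization 2. NOP58, of the same particle, stayed near 0 with -0.20, 0.19 and -0.05 and a mean of -0.02 ± 0.20 (limma adjusted p = 0.992). NOP10, of the H/ACA particles that guide pseudouridylation, had 0.36, 0.70 and -0.51. All 4 were negative on hybridization 3, and on hybridization 2 NOP1 alone was negative. The NOP58 value on hybridization 3 combines scans of opposite sign, 0.099 at high and -0.21 at low power.

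Large subunit factors were above 0 on hybridization 1 for 16 of 20 (median 0.56), above 0 on hybridization 2 for 10 of 16 (median 0.32) and below 0 on hybridization 3 for 16 of 18 (median -0.50). The RNA-binding proteins NOP15 (YNL110C) and NOP4 (YPL043W) had the widest ranges of this group among genes with all 3 values. NOP15 had 0.66, 0.37 and -1.23 (mean -0.07 ± 1.02, limma adjusted p = 0.980). NOP4 had 0.76, 0.27 and -1.09 (mean -0.02 ± 0.96, limma adjusted p = 0.995). Both were below 0 by more than 2-fold on hybridization 3 and above 0 on the other arrays. For NOP4 the scans were unlike, high power alone on hybridization 1 and low power alone on hybridization 3.

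The methyltransferase gene RRP8 ran like them, at 0.61, 0.30 and -0.98, and unlike the methyltransferase gene NOP2. The GTPase gene NOG1 had 0.56, 0.66 and -0.21. NOP7, the yeast pescadillo, was positive on hybridization 1 (0.21) and negative on hybridizations 2 (-0.41) and 3 (-0.53). RRP1 had 1.03 on hybridization 2, with values of -0.10 and -0.00055 on hybridizations 1 and 3.

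The exosome, which trims rRNA from its 3′ end, was represented by the 7 subunits named RRP, which all had values on all 3 arrays. The ring subunits RRP42, RRP43, RRP45 and RRP46 and the cap subunit RRP40 all had positive values on hybridizations 1 and 2 and negative values on hybridization 3. RRP40 had 0.51, 0.90 and -0.50, and RRP43 0.83, 0.34 and -0.33. RRP4 and RRP6 were the exceptions in opposite directions, positive and negative throughout. The median of the 7 means was 0.20, or 0.0033 without hybridization 1 and 0.35 without hybridization 3.

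Another 18 factors lacked a value on at least 1 array. Hybridization 1 gave a value for every factor, hybridization 2 lacked 13 and hybridization 3 lacked 7. For the 11 factors missing on hybridization 2 alone, hybridization 1 was above hybridization 3 in 11, where this held for 57.7% of all 1212 genes missing there alone, and 9 were above 0 on the former and below 0 on the latter (34.5% of those genes). Of the 5 factors missing on hybridization 3 alone, RRP5 and UTP14 were positive on both other arrays, while UTP4 had -0.36 on hybridization 1, RPF1 -0.01 on hybridization 2 and RPF2 -0.29 on hybridization 2. RRP14 had 0.67 and -1.24 and the exonuclease gene RRP17 1.36 and -0.49. ENP2, at 1.49 and 0.11, and the helicase gene RRP3, at -0.20 and -0.77, kept their sign. NOP19 had a value on hybridization 1 alone, 1.25.

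Repeat scans of an array share its RNA and labelling and show the noise of scanning alone. On hybridization 1, 35 of 37 spots of these genes with both scans had the same sign, with a median difference of 0.12. On hybridizations 2 and 3 it was 12 of 14 and 13 of 14, with median differences of 0.11 and 0.09. The largest differences were 0.71, 0.48 and 0.45 on hybridizations 1, 2 and 3. NOC3 and NOP56 have 2 spots each, which hold identical values and add no information, though the counts above include them.

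Without hybridization 3 the factors' median mean was 0.35, and over all genes, likewise from hybridizations 1 and 2, it was -0.04. The factors were already seen to be low on the array left out. Higher means thus followed from its omission, and the counts without it are description only. Then 6 of 46 passed an unadjusted p of 0.05 as higher, or 13%, against a background of 3.76%, and 0 as lower (background 5.33%). They were UTP23 (1.45 ± 0.24), ENP1 (0.99 ± 0.24), UTP5 (0.72 ± 0.40), NOP14 (0.71 ± 0.49), RRP40 (0.70 ± 0.27) and UTP11 (0.67 ± 0.25), each over 2 hybridizations. None passed the adjusted threshold (limma, lowest adjusted p = 0.0727 for UTP23; background 0.137% higher and 0.192% lower). The median was -0.04 without hybridization 1 and -0.09 without hybridization 2, with 0 factors higher in either case (background 3.6% and 2%). At an unadjusted p of 0.05 a single factor was lower in each case, NOP1 at -0.78 without hybridization 1 (background 2.33%) and UTP15 at -0.71 without hybridization 2 (background 1.48%).

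The ranking of the factors was little shared between arrays. Across the 46 factors the correlation of log2 ratios was -0.02 between hybridizations 1 and 2, -0.08 between 1 and 3, and 0.23 between 2 and 3. These are descriptions over genes of the same pathway and arrays, with no test. UTP15 and UTP18, among the highest on hybridization 2, were among the lowest on hybridization 1.

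Other genes of the pathway, from lists of textbook factors outside the naming rule, had similar medians. For 30 of 43 other small subunit factors, those with all 3 values, these were 0.26, 0.37 and -0.37 on hybridizations 1, 2 and 3, and for 35 of 52 other 60S factors 0.31, 0.27 and -0.47. For 16 of 27 other snoRNP, exosome and RNase MRP proteins they were 0.28, 0.21 and -0.40. Together, 69 of these 81 genes, or 85.2%, had their lowest value on hybridization 3. Of the 81, 0 passed the adjusted threshold (limma), and 1 passed an unadjusted p of 0.05: FPR4, a nucleolar prolyl isomerase gene, which was lower (-0.50, -0.49 and -0.89; adjusted p = 0.689).

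RNA polymerases I and III transcribe the rRNA and tRNA genes. Their subunits, listed with initiation factors of RNA polymerase I alone, had medians of 0.23, 0.15 and -0.42 over 14 of 27 genes. On hybridization 3, 14 of 14 were below 0. Cytosolic ribosomal protein genes differed less between arrays, with medians of 0.27, 0.01 and -0.14 over 115 of 123 genes, and 60% had their lowest value on hybridization 3, against 87% of the biogenesis factors. That difference was not tested. The ribosomal protein list was taken by symbol, so it also holds RPP1, a gene of the RNase MRP list above. Regulators of ribosome biogenesis or ribosomal protein genes formed a single list, including the activator gene FHL1 and the repressor gene DOT6. Its medians were -0.01, -0.02 and -0.18 over 7 of 10 genes. DOT6 had -0.94, -0.97 and -0.03 (mean -0.65 ± 0.53; limma unadjusted p = 0.0367, adjusted p = 0.785), so its ratios were low where those of the factors were high. Its paralogue TOD6, named after its values were seen, went the other way, with 0.44, 1.19 and -0.37.

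Genes of the general stress response under Msn2 and Msn4 had medians of the opposite sign. Their medians over 20 of 26 genes were -0.51, -1.09 and 1.36, negative on hybridizations 1 and 2 and positive on hybridization 3. Above 0 were 4 of 20 on hybridization 1, 3 of 20 on hybridization 2 and 17 of 20 on hybridization 3, and 0 of 20 had their lowest value on hybridization 3. The 2 genes of smallest p in this list were positive on every array: YGP1 had 1.01, 1.95 and 1.84 and HSP12 1.06, 1.40 and 2.59 (limma adjusted p = 0.137 and 0.149). The part of this contrast in the factors' values was not tested.

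**Figure D3:**
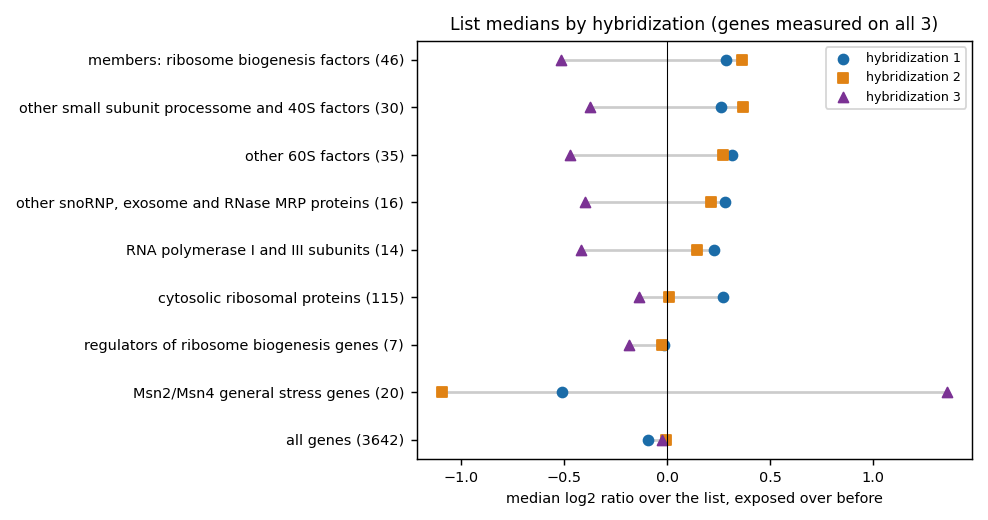
Median log2 ratio on each hybridization (circle 1, square 2, triangle 3) for the 46 ribosome biogenesis factors, other gene lists and all genes, with the number of genes measured on all 3 arrays in brackets. The factors span 0.36 to -0.51, and the general stress genes span -1.09 to 1.36 with the order of the hybridizations turned round.

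Neighbours in the genome did not always share their ratios. 2 pairs of factors lie next to each other in the gene table. NOG2 and ESF2, on the same strand, had 0.18 and -0.47 on hybridization 3, and 0.48 and 0.11 on hybridization 1. RRP15 and NOC4, which are convergent, had 1.07 and -0.49 on hybridization 1 and were close on hybridization 3, at -0.52 and -0.55.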

How the data were processed

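The deposited table holds the authors' log2 ratios for 6912 spots in 6 scans. Per the labels, LOWESS normalization used spots flagged 0. No source used here gives spot intensities, the scanner or the background correction, which leaves signal over background unknown. The platform annotation named 1 gene for 5513 spots, and current symbols came from the R64 gene table. Its coordinates were used only to find genes that lie next to each other. High and low scans were averaged for each hybridization, then spots of a gene. Genes measured on all 3 hybridizations (3642) entered limma 3.58.1 (R 4.3.3) as a test of the mean against 0 (two-sided, eBayes, Benjamini-Hochberg adjustment). The procedure was also run on simulated ratios with independent noise for each gene and array. Whole groups of genes moved together on these arrays, so that run is no check of the results given here. A sign-flip test of a gene over 3 arrays cannot go below an exact p of 0.25.

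The factors and all lists were chosen with earlier results of these data known, so lists are described by counts and medians, with no list test. Factors are named freely. Full statistics go to those past a threshold, with 1 sign throughout, with the 6 widest or 4 narrowest ranges, and to NOP1, NOP56, NOP58 and RRP6, and from each other list at most 2 genes of smallest p. A planned search of promoter motifs was not run, and sequences are not used here.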

Additional observations from a re-analysis of the deposited data

How the results depend on the processing

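No factor passed the adjusted threshold under any of 12 alternatives (limma). The alternative of choosing factors by current symbol repeats the main fit on the same genes, so it could not differ. Medians on hybridizations 1, 2 and 3 kept their signs with the high-power scan alone, centring, scaling, spot position taken out and genes on at least 2 hybridizations. With the low-power scan alone, 5 factors remained and the median on hybridization 1 was -0.21. With a value in both scans 4 remained, with medians of -0.09, -0.02 and -0.61. Factors with 1 sign throughout numbered 0 in both settings and 7 with spot position taken out. They numbered 14 to 24 when a replicate was left out and 2 arrays had to match. At an unadjusted p of 0.05 (limma), 1 factor was higher with spot position taken out. The share over all genes was not counted for any of these, so they cannot be read against a background. Leaving out a replicate gave 0 to 6 higher and 0 to 1 lower at that threshold, with the backgrounds given above.

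Signs of means near 0 turned. NOP58 had 0.086 with the high-power scan alone, 0.021 when centred and 0.016 with spot position taken out. NOP4 had 0.018 when centred and 0.0044 with spot position taken out, where NOP15 had 0.059. With a replicate left out, means ran from -0.12 to 0.070 for NOP58, -0.71 to 0.28 for UTP15, -0.67 to 0.28 for UTP18, -0.080 to 0.99 for ENP1, -0.43 to 0.51 for NOP15 and -0.41 to 0.51 for NOP4. The cause was not tested. Exposed and before RNA were paired within each array, and the test of the mean ratio against 0 uses that pairing. All arrays form a single group, so groups were not compared.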
